A study of Mus musculus with 9 samples.

Results

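The chemokine system was examined as all genes whose symbol names a chemokine ligand or receptor of the CC, CXC, CX3C or XC class (Ccl, Cxcl, Ccr or Cxcr followed by a number, Cx3c, Xcl and Xcr). The pattern found 50 of the 18193 genes measured, 33 ligands and 17 receptors, and for each the probe set of highest mean signal was used. RNA came from tracheal epithelium of mice hemizygous for a KRT5-GFP transgene, in which the promoter of keratin 5, a structural protein of basal cells, drives green fluorescent protein (GFP). After enzymatic digestion and dissection, cells were sorted into 3 gates on GFP and on binding of the isolectin GSI-A3B, and each gate had 3 biological replicates, 1 Affymetrix array each. Cells with GFP and lectin binding form the GFP+ gate and cells that bound the lectin without GFP the lectin-only gate, and the submitters name both basal cells. Cells with neither mark form the columnar gate, which the submitters name columnar epithelium. All 3 gates carried the transgene, so none is a wild type control. The age and sex of the mice and whether animals were pooled for a replicate are not given in the sources used here.

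Chemokines are small secreted proteins, and in Cx3cl1 and Cxcl16 also membrane-anchored ones, that steer the movement of leukocytes. They act through receptors with a bundle of membrane-spanning helices that couple to inhibitory G proteins, and the classes are named by the spacing of conserved cysteines near the start of the mature protein. In the airway the epithelium itself secretes several of them (Ccl20, Cxcl1, Cxcl5, Cxcl15, Cxcl17, Ccl28), while macrophages, dendritic cells and lymphocytes make others (Ccl3, Ccl4, Ccl22) and carry most of the receptors.

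Signals are given on the log2 scale of the deposited values, on which a difference of 1 is a doubling. A gene was called where limma's adjusted p was under 0.05 over all 18193 genes and the log2 difference was at least 1, and the error of a difference is limma's standard error (SE). A level of 3.56, the 95th percentile of 80 probe sets for odorant and pheromone receptors, which these cells should not use, served as background. Fewer cells of a type and less RNA per cell cannot be told apart in such sorted pools.

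The sort and the arrays were checked before the members. Trp63, the transcription factor of basal cells, had 13.19, 13.05 and 12.93 in GFP+, 11.98, 12.06 and 11.79 in lectin-only and 7.66, 7.29 and 7.92 in columnar cells, so that both lectin-binding gates lay above the columnar gate on every array. Krt5, whose promoter drives the reporter, had 13.44, 13.44 and 13.42 in GFP+, 12.91, 13.02 and 12.72 in lectin-only and 6.71, 8.27 and 8.88 in columnar cells. The lectin-only gate, sorted as without GFP, was thus nearer to the GFP+ gate than to the columnar gate in Krt5. Every GFP+ array (13.42 or more) still lay above every lectin-only array (13.02 or less). The GFP+ minus lectin-only difference in limma was 0.55 ± 0.45 (adjusted p = 0.663). That error is shared by all 9 arrays, and the columnar arrays spread most (6.71 to 8.88). The p-value therefore does not measure the spread of the GFP+ and lectin-only arrays alone. Foxj1, the transcription factor of motile cilia, ran the other way with 3.72, 4.52 and 4.03 in GFP+, 5.11, 5.46 and 5.75 in lectin-only and 7.18, 7.36 and 7.36 in columnar cells. Scgb1a1, the secretoglobin of club cells, lay between 13.49 and 13.88 on all 9 arrays and so did not separate the gates. Replicate 3 of the lectin-only gate stood apart, with a median of 5.44 against 4.91 to 5.16 on the others, and 39.4% of all genes had their highest value on it. Ptprc, the leukocyte common antigen, had 5.11, 4.73 and 6.38 in GFP+, 8.85, 8.29 and 9.72 in lectin-only and 4.36, 2.86 and 2.53 in columnar cells. The summed signal of 6 leukocyte markers was 8.89 to 10.63 in the GFP+ gate, 12.77 to 13.45 in the lectin-only gate and 7.69 to 8.47 in the columnar gate (log2 of the sum), and 0 of the 6 lay under background on all arrays of any gate.

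Most of the 27 members with a call had their highest mean in the lectin-only gate, a few ligands had it in the columnar gate and only Ccl20 in the GFP+ gate. The other 23 members had no call. Against the columnar gate, the lectin-only gate had 21 of 50 members higher and 2 lower, where 6.47% of all genes were called higher and 2.38% lower, and the members' median difference was 0.84 against 0.07 over all genes. Between the GFP+ and lectin-only gates, the GFP+ gate had 0 members higher and 19 lower, where 0.896% and 2.84% of all genes were called. There, 27 of the 50 members had an unadjusted p under 0.05 in limma, against 2781 of all 18193 genes. The median difference was -1.13 against -0.10 over all genes. Between the GFP+ and columnar gates, 4 members were higher and 6 lower, where 5.88% and 5.33% of all genes were called, and the median was -0.05 against -0.04 over all genes. The 4 higher members were Ccl3, Ccl20, Cxcl10 and Xcl1, and the 6 lower ones were Ccl9, Ccl28, Cxcl5, Cxcl13, Cxcl15 and Cxcl17. Without GFP+ replicate 1 the 4 became 7, and without GFP+ replicate 1 or columnar replicate 3 the 6 became 3. Without lectin-only replicate 3, the array that stood apart, 20 members were higher and 3 lower in lectin-only against columnar, 0 and 14 in GFP+ against lectin-only and 3 and 5 in GFP+ against columnar. Calls in either direction covered 11.2% of all genes for GFP+ against columnar, 8.85% for lectin-only against columnar and 3.74% for GFP+ against lectin-only, in pairs that share arrays. The arrays of the gates did not overlap for 4 members higher and 7 lower in GFP+ against columnar (15.8% and 17.8% of all genes). They did not overlap for 25 higher and 3 lower in lectin-only against columnar (16.0% and 8.61%), and for 1 higher and 31 lower in GFP+ against lectin-only (5.24% and 13.3%).

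Over the 3 comparisons, 27 members had a call in at least 1. Of these, 17 were called higher in the lectin-only gate than in both others (34.0% of members, and 1.57% of all genes), 11 of them ligands and 6 receptors. Another 2 were called lower in both lectin-binding gates than in the columnar gate (4.0% of members and 2.23% of all genes), and 1 was called higher in both (2.0% and 3.23%). None was called higher in the GFP+ gate than in both others, where 0.407% of all genes were. The remaining 7 had other combinations of calls, and 23 had none.

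**Figure D1:**
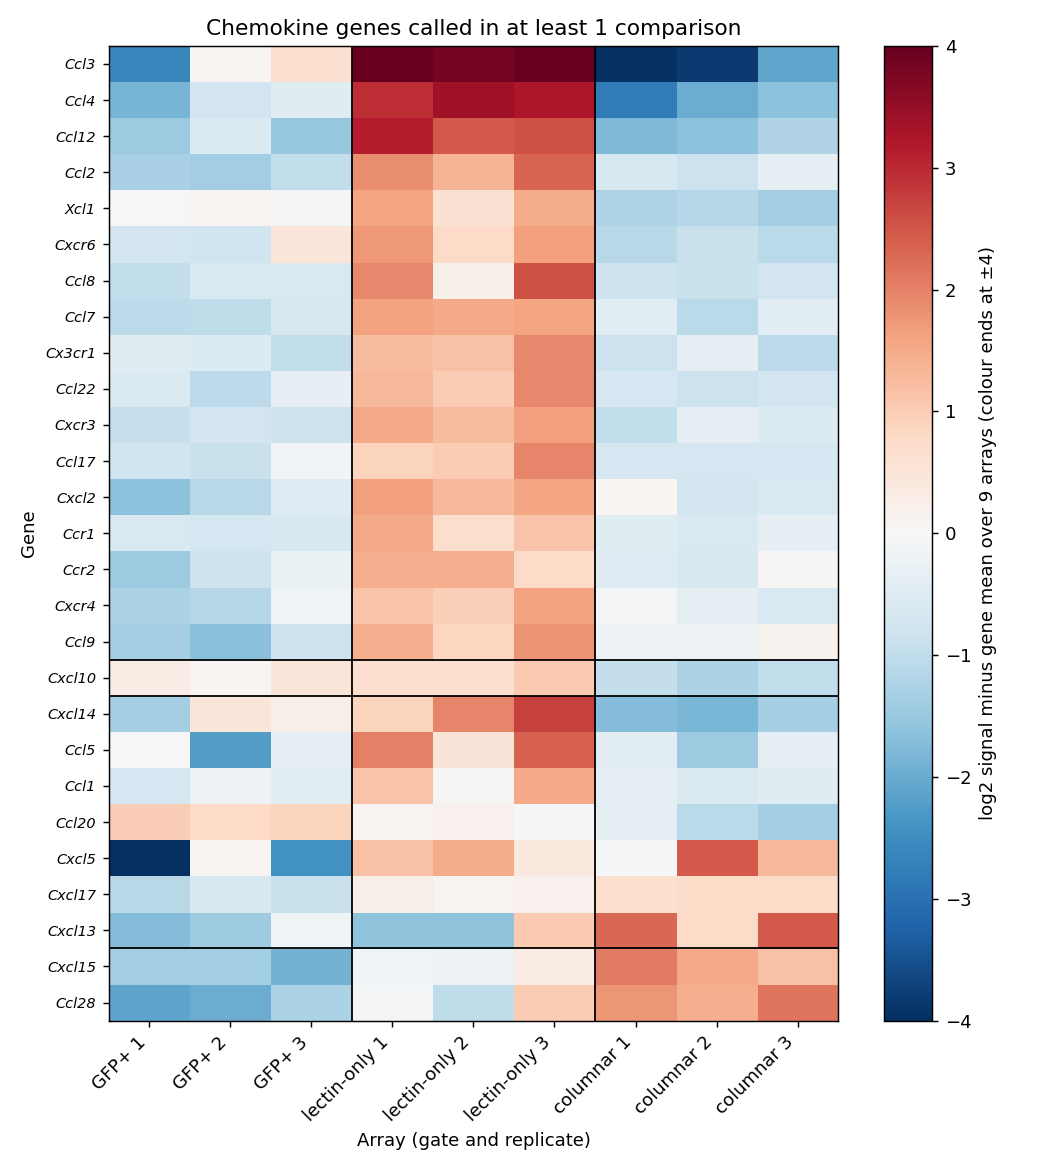
Log2 signal of the 27 members called in at least 1 comparison, minus each gene's mean over the 9 arrays; columns are arrays by gate and replicate, and black lines part the gates and the combinations of calls (from the top: higher in the lectin-only gate than in both others, higher in both lectin-binding gates, other calls, lower in both lectin-binding gates). The upper 17 rows are red on the lectin-only arrays (Ccl8 near white on replicate 2), and the lowest rows are red on the columnar arrays.

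Among CC ligands, Ccl3 and Ccl4, inflammatory attractants of monocytes and T cells made by activated macrophages, had the largest differences between the lectin-only and columnar gates. Ccl3 had 4.60, 7.28 and 7.86 in GFP+, 11.51, 11.02 and 11.24 in lectin-only and 2.84, 3.37 and 5.13 in columnar cells. It was called higher in the lectin-only gate than in the columnar gate by 7.47 ± 0.81 (adjusted p = 0.000441) and lower in GFP+ than lectin-only cells, with a difference of -4.68 ± 0.81 (adjusted p = 0.0127). The GFP+ arrays were far apart from each other, their lowest value lay under the highest columnar one, and the GFP+ minus columnar difference of 2.80 ± 0.81 (adjusted p = 0.0483) was lost when any 1 of 7 arrays was left out (all but columnar replicate 3 and GFP+ replicate 1, differences of 2.16 to 2.80). In a fit of the GFP+ and columnar gates alone that difference (2.80) also lost its call. The GFP+ minus lectin-only call was lost without lectin-only replicate 1 or 3 (-4.68 to -4.55). Ccl4 had 4.39, 5.48 and 5.76 in GFP+, 9.20, 9.64 and 9.49 in lectin-only and 3.44, 4.27 and 4.63 in columnar cells. All lectin-only arrays lay above all others, at 5.33 ± 0.39 (adjusted p = 6.43e-05) over the columnar gate, while the GFP+ minus columnar difference was 1.10 ± 0.39 (adjusted p = 0.106) and was called only without GFP+ replicate 1 or with the replicate block (1.51 and 1.10).

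The monocyte attractants Ccl2, Ccl7, Ccl8 and Ccl12, which lie next to each other on chromosome 11 with Ccl11 among them, were called higher in the lectin-only gate than in both others. Ccl12 had 2.20, 3.11 and 2.12 in GFP+, 6.79, 6.11 and 6.20 in lectin-only and 1.86, 2.00 and 2.45 in columnar cells. It was above background on the lectin-only arrays alone, so its difference is a bound, at least 7-fold over the columnar gate and at least 7-fold over the GFP+ gate (adjusted p = 6.22e-05 and 0.000332). Ccl2 had 3.26, 3.15 and 3.55 in GFP+, 6.41, 5.89 and 6.87 in lectin-only and 3.91, 3.67 and 4.18 in columnar cells. The lectin-only arrays did not overlap with either other gate (2.47 ± 0.26, adjusted p = 0.000389, over columnar), and the GFP+ gate, under background on all its arrays, was at least 7.14-fold below the lectin-only gate. Ccl7 was at least 3.43-fold higher in lectin-only than columnar cells, and Ccl8 at least 2.53-fold. Ccl8 varied widely within the lectin-only gate (5.26, 3.53 and 5.90), and its call over the columnar gate was lost without lectin-only replicate 1 (2.20), while that between the GFP+ and lectin-only gates was lost when any 1 of 7 arrays was left out (all but columnar replicate 2 and lectin-only replicate 2, -2.35 to -1.78). The GFP+ minus lectin-only call of Ccl8 was also lost in a fit of those 2 gates (-2.28). Ccl11, the eosinophil attractant eotaxin, was not called, with its highest value of 4.73 on GFP+ replicate 2 and 3.25 or less on the other 8 arrays.

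Ccl17 and Ccl22, ligands of Ccr4 that dendritic cells secrete, had the same calls. Ccl17 had 5.77, 5.68 and 6.46 in GFP+, 7.47, 7.61 and 8.54 in lectin-only and 5.90, 5.91 and 5.88 in columnar cells, and the lectin-only gate was higher than the columnar gate by 1.97 ± 0.31 (adjusted p = 0.00284). Ccl22 had 3.09, 2.62 and 3.34 in GFP+, 4.95, 4.67 and 5.59 in lectin-only and 3.01, 2.82 and 2.91 in columnar cells, so it passed background in the lectin-only gate only, at least 2.86-fold above the columnar gate. For both genes the GFP+ and columnar gates overlapped. Ccl9, a macrophage-derived attractant known from mouse, had 7.10, 6.77 and 7.62 in GFP+, 9.90, 9.28 and 10.22 in lectin-only and 8.20, 8.23 and 8.59 in columnar cells. The 3 gates of Ccl9 did not overlap, with the lectin-only gate 1.46 ± 0.29 (adjusted p = 0.0103) above and the GFP+ gate at -1.18 ± 0.29 (adjusted p = 0.0234) from the columnar gate, though that second call was lost without any 1 of the columnar arrays or GFP+ replicate 1 or 2 (-1.25 to -0.98). The other probe set of Ccl9 had smaller differences, 0.59 for lectin-only minus columnar and -0.88 for GFP+ minus columnar. Its neighbour Ccl6 had 5.86, 8.11 and 9.22 in GFP+, 9.80, 9.83 and 10.80 in lectin-only and 7.69, 6.53 and 8.82 in columnar cells and was not called (2.47 ± 0.82, adjusted p = 0.0977, for lectin-only minus columnar), although every lectin-only array was above every columnar array. It was called there with the replicate block, in a fit of those 2 gates alone or without GFP+ replicate 1, at an equal difference. The other probe set of Ccl6 had differences of 3.91 for lectin-only minus columnar and -3.29 for GFP+ minus lectin-only.

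Ccl5, an attractant made by T cells and natural killer cells, had 4.99, 2.75 and 4.60 in GFP+, 7.00, 5.52 and 7.37 in lectin-only and 4.53, 3.54 and 4.65 in columnar cells. The lectin-only gate was higher than the columnar gate by 2.39 ± 0.64 (adjusted p = 0.0424), a call lost without any 1 of the columnar arrays, lectin-only replicate 1 or 3, or GFP+ replicate 3 (2.02 to 2.59). It was also lost after a further quantile normalization and with arrays weighted by quality (2.17 to 2.18). Ccl1, a T cell product that binds Ccr8, lay under background on all GFP+ and columnar arrays and at 4.26, 3.17 and 4.65 in the lectin-only gate, at least 1.39-fold over the columnar gate (adjusted p = 0.0267). That call was lost without any 1 of the columnar arrays or lectin-only replicate 1 or 3 (1.07 to 1.44), and in a fit of those 2 gates (1.38). Xcl1, lymphotactin, which natural killer and T cells release, had 4.52, 4.57 and 4.45 in GFP+, 6.07, 5.09 and 5.98 in lectin-only and 3.26, 3.35 and 3.14 in columnar cells. Its gates did not overlap, and it was at least 1.94-fold higher in the GFP+ gate and at least 4.46-fold higher in the lectin-only gate than in the columnar gate (adjusted p = 0.00802 and 0.000316). The GFP+ minus lectin-only difference of -1.20 ± 0.25 (adjusted p = 0.0291) was lost without any 1 of the GFP+ arrays or lectin-only replicate 1 or 3 (-1.23 to -1.02), in a fit of those 2 gates (-1.20) and after a further quantile normalization (-0.82).

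The neutrophil attractants Cxcl1, Cxcl2, Cxcl3 and Cxcl5, which lie near each other on chromosome 5 with Cxcl15 among them and share the receptor Cxcr2, did not all have the same calls. Cxcl2 had 7.38, 7.89 and 8.51 in GFP+, 10.65, 10.30 and 10.60 in lectin-only and 9.08, 8.28 and 8.38 in columnar cells, and the lectin-only gate was higher than the columnar gate by 1.93 ± 0.31 (adjusted p = 0.00352) and the GFP+ gate lower than the lectin-only gate, with a difference of -2.59 ± 0.31 (adjusted p = 0.00245). Cxcl1 had 10.92, 10.53 and 10.74 in GFP+, 10.61, 11.69 and 11.06 in lectin-only and 11.74, 11.10 and 10.51 in columnar cells, and its gates overlapped in all 3 comparisons, with a lectin-only minus columnar difference of 0.00 ± 0.35 (adjusted p = 0.999). The probe set used for Cxcl1 has the identifier suffix that Affymetrix gives to probes that may cross-hybridise, and the other 2 probe sets of the gene differed by 0.07 and -0.36 there. Cxcl3 had 2.66, 5.33 and 5.55 in GFP+, 5.74, 6.44 and 5.76 in lectin-only and 2.61, 4.49 and 3.13 in columnar cells. No lectin-only array of Cxcl3 overlapped with the columnar gate, but the difference of 2.57 ± 0.73 (adjusted p = 0.0559) did not pass, and it did in 7 of the 18 alternatives (2.57 to 3.11). Cxcl5 had 4.39, 8.90 and 6.38 in GFP+, 9.95, 10.27 and 9.17 in lectin-only and 8.71, 11.23 and 10.08 in columnar cells. Its GFP+ arrays spread over more than 4 units, and the call of the GFP+ against the columnar gate, -3.45 ± 1.00 (adjusted p = 0.0489), was lost when any 1 of 7 arrays was left out (all but columnar replicate 1 and GFP+ replicate 2, -3.45 to -2.37). That call was also lost in a fit of those 2 gates and with arrays weighted by quality (-3.45 to -3.22).

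The promoters of 3 of these neighbours are shown because the 3 share letters and 1 of the genes was called. Inducible chemokine genes are known targets of the transcription factor NF-kB, whose binding sequence was searched as GGGAA, any 3 bases and CC, on both strands. Sequences run 5′ to 3′ on the strand of the gene, from 250 bases before to 50 after the start (RefSeq, GRCm38.p6), with matches in capitals and overlapping matches joined in 1 run.
Cxcl1 promoter, chr5:90890995-90891294, strand +: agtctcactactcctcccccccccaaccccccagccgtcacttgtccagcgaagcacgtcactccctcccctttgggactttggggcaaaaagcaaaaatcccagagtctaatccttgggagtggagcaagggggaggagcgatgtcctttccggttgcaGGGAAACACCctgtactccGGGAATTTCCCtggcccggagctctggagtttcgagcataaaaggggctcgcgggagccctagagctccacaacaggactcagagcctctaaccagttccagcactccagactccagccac
Cxcl2 promoter, chr5:90903649-90903948, strand +: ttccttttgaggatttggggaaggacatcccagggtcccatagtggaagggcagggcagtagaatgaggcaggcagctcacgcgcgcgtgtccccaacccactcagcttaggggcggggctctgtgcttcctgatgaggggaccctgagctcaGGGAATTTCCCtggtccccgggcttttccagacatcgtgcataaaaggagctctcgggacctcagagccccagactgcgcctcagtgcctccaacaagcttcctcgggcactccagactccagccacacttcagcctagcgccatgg
Cxcl3 promoter, chr5:90785851-90786150, strand +: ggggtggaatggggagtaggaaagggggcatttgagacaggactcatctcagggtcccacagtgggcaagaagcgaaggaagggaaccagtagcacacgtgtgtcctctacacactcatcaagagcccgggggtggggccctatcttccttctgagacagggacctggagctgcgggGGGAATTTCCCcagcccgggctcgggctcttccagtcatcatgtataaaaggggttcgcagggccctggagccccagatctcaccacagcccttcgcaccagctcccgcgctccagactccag
Each of the 3 holds GGGAATTTCCC, which matches on both strands, at position -71 from the start in Cxcl1, -97 in Cxcl2 and -73 in Cxcl3, and Cxcl1 has another match at -90. Cxcl2 was called higher in the lectin-only gate, while Cxcl1 and Cxcl3 were not called. Whether Cxcl2 and Cxcl3 differ from each other was not tested, and the uncalled difference of Cxcl3 (2.57) was larger than that of Cxcl2 (1.93). Of the 37 members with a promoter in the table, 9 hold the motif, against 5.78% of all 32851 promoters, counting a gene with several promoters as holding it where any does (6.59% of 27025 genes). In the set called higher in the lectin-only gate than in both others, 1 of 14 genes with a promoter holds it, and of the 16 uncalled genes 5 do. A match describes letters in this window and is not a measured site.

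All 6 called receptors were higher in the lectin-only gate than in both other gates. Between the GFP+ and columnar gates, limma called 0 of 17 receptors, where 5.88% of all genes were called higher and 5.33% lower. Of the 17, 0 had an unadjusted p under 0.05 in limma, against 4571 of all 18193 genes. Ccr2, the receptor of Ccl2, Ccl7 and Ccl12 on monocytes, had 6.58, 7.21 and 7.76 in GFP+, 9.51, 9.48 and 8.81 in lectin-only and 7.51, 7.40 and 8.10 in columnar cells. The lectin-only gate was higher than the columnar gate by 1.60 ± 0.33 (adjusted p = 0.0131) and the GFP+ gate lower than the lectin-only gate, with a difference of -2.08 ± 0.33 (adjusted p = 0.00911), and the smaller of these calls was lost without columnar replicate 1 or 2 or lectin-only replicate 1 (1.46 to 1.52). Cxcr4, the receptor of Cxcl12 on most leukocytes, had 8.01, 8.14 and 9.11 in GFP+, 10.43, 10.25 and 10.89 in lectin-only and 9.21, 8.90 and 8.67 in columnar cells, with 1.60 ± 0.31 (adjusted p = 0.00928) for lectin-only minus columnar. For both receptors the signal was above background on all 9 arrays and the GFP+ and columnar gates overlapped. Cx3cr1, the fractalkine receptor of monocytes and macrophages, had 4.58, 4.51 and 4.08 in GFP+, 6.29, 6.25 and 6.98 in lectin-only and 4.22, 4.68 and 4.0 in columnar cells, and the lectin-only gate was higher than the columnar gate by 2.20 ± 0.27 (adjusted p = 0.000772).

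The other called receptors were near background outside the lectin-only gate. Cxcr3, which activated T cells carry, had 3.09, 3.24 and 3.20 in GFP+, 5.53, 5.30 and 5.65 in lectin-only and 3.05, 3.63 and 3.49 in columnar cells, and the lectin-only gate was higher than the columnar gate by 2.10 ± 0.20 (adjusted p = 0.000201). Cxcr6, the receptor of Cxcl16 on T and natural killer cells, had 2.71, 2.69 and 3.96 in GFP+, 5.21, 4.23 and 5.13 in lectin-only and 2.38, 2.59 and 2.39 in columnar cells, at least 2.46-fold higher in lectin-only than columnar cells (adjusted p = 0.00286). Its GFP+ minus lectin-only call (-1.73 ± 0.37, adjusted p = 0.0326) was lost when any 1 of 6 arrays was left out (replicates 1 and 3 of the columnar and lectin-only gates and 1 and 2 of the GFP+ gate, -1.73 to -1.52), in a fit of those 2 gates (-1.73) and after a further quantile normalization (-1.38). Ccr1, a receptor of Ccl3 and Ccl9 on myeloid cells, was at least 2.2-fold higher in the lectin-only gate than in the columnar gate (adjusted p = 0.00132). Its arrays read 5.09, 4.28 and 4.72 in the lectin-only gate and 3.22 or less in both others. Of the 11 uncalled receptors, 6 lay under background on all 9 arrays (Ccr10, Ccr1l1, Ccr3, Ccr4, Ccr8 and Cxcr2), and the other 5 reached at most 4.92 (Ccr6, Ccr7, Ccr9, Cxcr5 and Xcr1). Of these, Ccr6 was called higher in lectin-only than columnar cells without lectin-only replicate 3 (1.24), and Ccr9 without lectin-only replicate 2 (1.32).

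**Figure D2:**
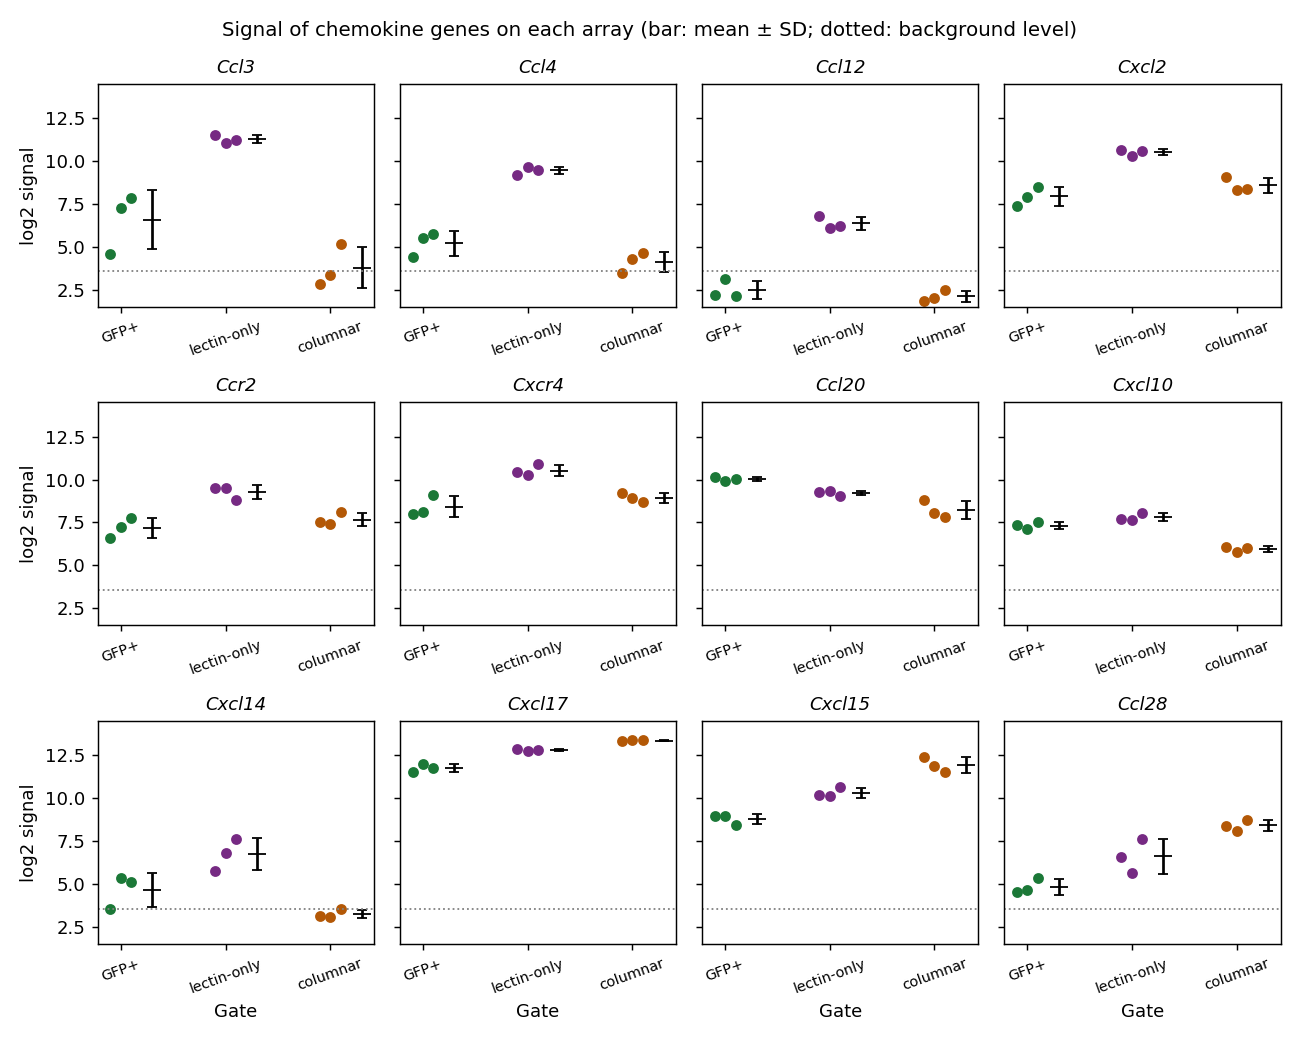
Log2 signal of 12 members on each array by gate, with the mean and SD over 3 arrays (black) and the background level of 3.56 (dotted). In the first 6 panels every lectin-only array lies above all others; Ccl20 is highest in the GFP+ gate, and Cxcl17, Cxcl15 and Ccl28 are highest in the columnar gate.

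A few ligands were higher in a lectin-binding gate without being confined to the lectin-only gate. Ccl20, the ligand of Ccr6 that airway epithelium secretes to draw dendritic cells and lymphocytes, had 10.14, 9.94 and 10.04 in GFP+, 9.26, 9.32 and 9.07 in lectin-only and 8.80, 8.07 and 7.81 in columnar cells. The gates did not overlap, and Ccl20 was the only called member with its highest mean in the GFP+ gate, 1.81 ± 0.25 (adjusted p = 0.000952) above the columnar gate. The lectin-only gate was 0.99 ± 0.25 (adjusted p = 0.0307) above the columnar gate, just short of the minimum difference, and the GFP+ minus lectin-only difference of 0.82 ± 0.25 (adjusted p = 0.113) did not pass. Cxcl10, an interferon-induced ligand of Cxcr3, had 7.34, 7.10 and 7.52 in GFP+, 7.71, 7.66 and 8.07 in lectin-only and 6.08, 5.76 and 6.04 in columnar cells. It was higher than in the columnar gate by 1.36 ± 0.19 (adjusted p = 0.00126) in the GFP+ gate and by 1.85 ± 0.19 (adjusted p = 0.00036) in the lectin-only gate, with no overlap, and was the only member called higher in both apart from Ccl3 and Xcl1, which were also called between the 2 lectin-binding gates.

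Cxcl14, a ligand that many epithelia make, had 3.55, 5.36 and 5.13 in GFP+, 5.77, 6.83 and 7.62 in lectin-only and 3.15, 3.07 and 3.55 in columnar cells. It lay under background on all columnar arrays, so the lectin-only gate was at least 9.08-fold higher (adjusted p = 0.00279). The GFP+ gate overlapped with the columnar gate and did not pass against either (1.42 ± 0.54, adjusted p = 0.126, against columnar, -2.06 ± 0.54, adjusted p = 0.069, against lectin-only). It passed against the columnar gate without GFP+ replicate 1 (1.99), the lowest GFP+ array, and with the replicate block (1.42), and against the lectin-only gate in 4 of the 18 alternatives (-2.54 to -2.04). The other probe set of Cxcl14 had a GFP+ minus columnar difference of -0.08, and 1.93 for lectin-only minus columnar.

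The promoters of Ccl20 and Cxcl10, the members called higher in the GFP+ gate that were above background on all 9 arrays in every gate, are shown with the same marks.
Ccl20 promoter, chr1:83116516-83116815, strand +: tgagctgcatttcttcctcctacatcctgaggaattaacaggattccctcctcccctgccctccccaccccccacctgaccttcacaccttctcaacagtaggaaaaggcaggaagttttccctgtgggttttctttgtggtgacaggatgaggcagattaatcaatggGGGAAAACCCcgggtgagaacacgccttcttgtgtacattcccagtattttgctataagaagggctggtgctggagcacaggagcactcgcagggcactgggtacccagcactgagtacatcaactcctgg
Cxcl10 promoter, chr5:92348840-92349139, strand -: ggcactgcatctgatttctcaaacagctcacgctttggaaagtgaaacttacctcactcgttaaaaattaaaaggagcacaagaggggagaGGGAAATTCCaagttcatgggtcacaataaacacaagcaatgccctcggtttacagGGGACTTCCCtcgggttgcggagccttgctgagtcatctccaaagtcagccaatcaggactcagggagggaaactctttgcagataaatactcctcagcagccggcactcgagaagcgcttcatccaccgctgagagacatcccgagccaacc
Ccl20 holds 1 match, at position -81 from the start, and Cxcl10 holds 2, at -159 and -103.

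Ligands of the columnar gate formed the opposite group. Cxcl17, a mucosal ligand made in airway epithelium, had 11.53, 12.00 and 11.76 in GFP+, 12.88, 12.75 and 12.81 in lectin-only and 13.32, 13.37 and 13.37 in columnar cells. The gates did not overlap, and the GFP+ gate was lower than the columnar gate, with a difference of -1.59 ± 0.17 (adjusted p = 0.000225) and lower than the lectin-only gate, with a difference of -1.05 ± 0.17 (adjusted p = 0.00903), the last call being lost without GFP+ replicate 1 (-0.94) or with arrays centred on their medians (-0.93). Cxcl15, lungkine, a mouse neutrophil attractant of airway epithelium, had 8.96, 8.98 and 8.45 in GFP+, 10.19, 10.12 and 10.67 in lectin-only and 12.43, 11.87 and 11.52 in columnar cells. It was called in all 3 comparisons, at -3.14 ± 0.27 (adjusted p = 8.18e-05) for GFP+ minus columnar, -1.61 ± 0.27 (adjusted p = 0.00464) for lectin-only minus columnar and -1.53 ± 0.27 (adjusted p = 0.0144) for GFP+ minus lectin-only, which was lost without lectin-only replicate 3 or GFP+ replicate 3 (-1.36 to -1.35). Its second probe set differed by -3.88, -2.08 and -1.81 in the same order of comparisons.

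Ccl28, the mucosal ligand of Ccr10 and Ccr3 that draws antibody-secreting cells, had 4.52, 4.63 and 5.37 in GFP+, 6.59, 5.62 and 7.64 in lectin-only and 8.40, 8.09 and 8.76 in columnar cells. The GFP+ gate was lower than the columnar gate, with a difference of -3.58 ± 0.46 (adjusted p = 0.000673) and so was the lectin-only gate, with -1.80 ± 0.46 (adjusted p = 0.0337), a call lost without any 1 of the columnar arrays, lectin-only replicate 1 or 2 or GFP+ replicate 2 (-1.97 to -1.30). In a fit of the lectin-only and columnar gates alone that call was lost too (-1.80). Dimmer probe sets of Ccl28 had smaller differences, -1.51 and -0.56 for GFP+ minus columnar and -1.15 and -0.53 for lectin-only minus columnar. Cxcl13, the B cell attractant, had 3.00, 3.34 and 4.57 in GFP+, 3.13, 3.14 and 5.80 in lectin-only and 7.04, 5.51 and 7.20 in columnar cells. It was lower in GFP+ than columnar cells, with a difference of -2.95 ± 0.76 (adjusted p = 0.0287), lost when columnar replicate 1 or 3, or replicate 1 or 2 of the GFP+ gate, was left out (-2.80 to -2.63). The lectin-only minus columnar difference of -2.56 ± 0.76 (adjusted p = 0.0642) did not pass, and lectin-only replicate 3 lay above the lowest columnar array. Without that replicate the difference was called at -3.45, and it was called in 8 of the 18 alternatives in all. Both probe sets of Cxcl13 ran the same way, at -2.95 and -2.19 for GFP+ minus columnar.

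**Figure D3:**
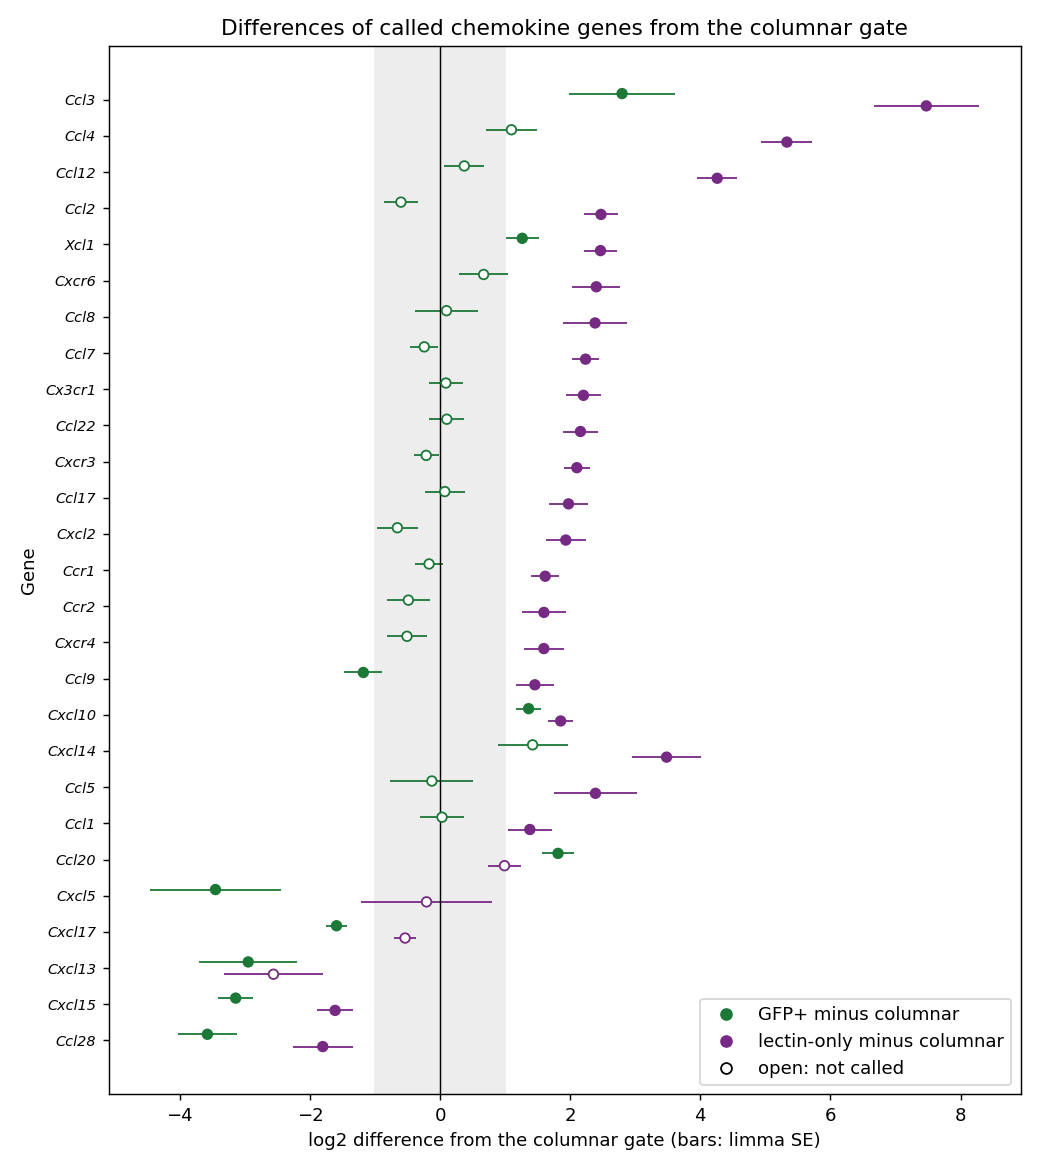
Log2 differences of the 27 called members from the columnar gate, with limma SE; green is GFP+ minus columnar, purple lectin-only minus columnar, filled symbols are called and the grey band spans differences under 1. Purple lies right of green from Ccl3 down to Ccl1, and both lie left of 0 for the lowest 5 genes; the 2 differences of a gene share the columnar arrays.

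Some ligands were clearly measured without a call in any comparison. Cx3cl1, fractalkine, had 8.26, 8.13 and 8.60 in GFP+, 8.18, 8.17 and 8.26 in lectin-only and 8.29, 8.31 and 8.26 in columnar cells. Cxcl16, the membrane-bound ligand of Cxcr6, had 9.28, 9.05 and 8.61 in GFP+, 9.29, 9.31 and 9.73 in lectin-only and 9.85, 9.04 and 9.26 in columnar cells. The lectin-only and columnar arrays of Cx3cl1 met at 8.26, and every GFP+ array of Cxcl16 lay just under every lectin-only array, while the other gates overlapped. The lectin-only minus columnar difference was -0.08 ± 0.17 (adjusted p = 0.852) for Cx3cl1 and 0.06 ± 0.26 (adjusted p = 0.944) for Cxcl16. Ccl25, the ligand of Ccr9, had 6.57, 7.04 and 5.88 in GFP+, 6.00, 6.62 and 5.03 in lectin-only and 6.64, 6.06 and 6.50 in columnar cells and was not called either. With Cxcl1 and Ccl6 these make 5 uncalled members above background on all 9 arrays.

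Of the other uncalled ligands, Cxcl12, the ligand of Cxcr4, had 4.58, 3.15 and 4.41 in GFP+, 4.54, 4.62 and 4.81 in lectin-only and 6.12, 4.91 and 3.68 in columnar cells, with columnar arrays far apart. Its probe sets disagreed, since the one used had a lectin-only minus columnar difference of -0.25 and another, with means of 3.68, 5.07 and 3.31 in the GFP+, lectin-only and columnar gates, one of 1.75. Ccl27a had 4.98, 5.88 and 3.91 in GFP+, 5.01, 3.98 and 3.20 in lectin-only and 4.22, 4.22 and 4.07 in columnar cells, and Ccl24 passed background on lectin-only replicate 2 only. Cxcl9 and Cxcl11, the interferon-induced ligands of Cxcr3 beside Cxcl10, lay under background on all 9 arrays. Altogether 8 members were under background on all arrays and 17 above it on all. Of the 8, 6 had their highest value on lectin-only replicate 3.

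Receptors and their ligands did not share 1 pattern. Where the receptor was called in the lectin-only gate, Ccr2 with Ccl2, Ccl7 and Ccl12, and Ccr1 with Ccl3, Ccl7 and Ccl9, had ligands that, like the receptor, were called higher there than in both other gates. Among the other ligands of Ccr1, Ccl5 was called only in lectin-only against columnar, and Ccl6 was not called. Cxcr4, Cxcr6 and Cx3cr1 were high in the lectin-only gate, while their ligands Cxcl12, Cxcl16 and Cx3cl1 were not called. These statements hold for the probe sets used. For lectin-only minus columnar, another probe set of Ccl6 had 3.91, and others of Cxcl12 had 1.75 and -0.03. Cxcr3 had a ligand, Cxcl10, that was higher in both lectin-binding gates, with Cxcl9 and Cxcl11 under background. Some called ligands had receptors without a call, as in Ccl20 with Ccr6, Cxcl13 with Cxcr5 and Xcl1 with Xcr1. Others had receptors under background on all arrays, as in Ccl17 and Ccl22 with Ccr4, Ccl1 and Ccl8 with Ccr8, Ccl28 with Ccr10 and Ccr3, and Cxcl2 and Cxcl5 with Cxcr2.

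Atypical receptors bind chemokines without G protein signalling and stand outside the symbol pattern. Ackr3, which takes up Cxcl12, had 11.48, 11.40 and 11.79 in GFP+, 10.37, 10.09 and 10.88 in lectin-only and 8.38, 8.51 and 8.99 in columnar cells. It was called higher in GFP+ than columnar cells by 2.93 ± 0.25 (adjusted p = 7.65e-05), in lectin-only than columnar cells by 1.82 ± 0.25 (adjusted p = 0.00162) and in GFP+ than lectin-only cells by 1.11 ± 0.25 (adjusted p = 0.0406). The last call was lost in a fit of those 2 gates alone and when any 1 of 7 arrays was left out, all but columnar replicate 3 and lectin-only replicate 3 (0.93 to 1.19, adjusted p of 0.0523 to 0.125). Pf4, a CXC ligand known from platelets, was higher in lectin-only than columnar cells by 2.06 ± 0.26 (adjusted p = 0.000883). Dpp4, a peptidase that trims chemokines, was lower in GFP+ than columnar cells, with a difference of -3.29 ± 0.52 (adjusted p = 0.0022). Ccrl2, which binds chemerin, was lower in GFP+ than lectin-only cells, with a difference of -1.60 ± 0.28 (adjusted p = 0.0127) and also than columnar cells, at -1.11 ± 0.28 (adjusted p = 0.0256). The second call was lost in a fit of those 2 gates and when replicate 2 or 3 of GFP+, or 1 or 2 of columnar, was left out (-1.19 to -0.85). Cmklr1, the chemerin receptor, was called higher in the lectin-only gate than in both others but passed background on lectin-only replicate 2 only, and each call was lost under 8 of 17 alternatives. Of the 13 genes of this list, 1 was higher and 2 lower in GFP+ against columnar, 3 higher and 0 lower in lectin-only against columnar, and 1 higher and 4 lower in GFP+ against lectin-only, with medians of -0.11, 0.49 and -0.96 (-0.04, 0.07 and -0.10 over all genes). For this and the next 2 lists, the shares of all genes called higher and lower are those given for the members, 5.88% and 5.33% for GFP+ against columnar, 6.47% and 2.38% for lectin-only against columnar and 0.896% and 2.84% for GFP+ against lectin-only.

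Of 29 genes of receptor signalling, 10 were higher and 0 lower in lectin-only than columnar cells, 2 higher and 2 lower in GFP+ than columnar cells, and 0 higher and 11 lower in GFP+ than lectin-only cells. The medians were 0.73, 0.08 and -0.66 in the same order of comparisons, and the counts of GFP+ against columnar lie near the shares of all genes. Rgs1, a regulator that ends G protein signals in lymphocytes, had 5.92, 6.61 and 6.68 in GFP+, 9.95, 10.27 and 9.82 in lectin-only and 4.52, 3.63 and 5.39 in columnar cells, and was higher by 5.50 ± 0.40 (adjusted p = 6.43e-05) in the lectin-only and 1.89 ± 0.40 (adjusted p = 0.0114) in the GFP+ gate than in the columnar gate. Gng2, a G protein subunit, was higher in lectin-only than columnar cells by 3.68 ± 0.47 (adjusted p = 0.00108), Dock2, which leukocytes need to migrate, by 3.33 ± 0.46 (adjusted p = 0.00152), and Itgb2, the beta chain of leukocyte integrins, by 3.26 ± 0.53 (adjusted p = 0.0036). Fgr, a tyrosine kinase of myeloid cells, lay under background on all GFP+ and columnar arrays and was at least 3.39-fold lower in GFP+ than lectin-only cells (adjusted p = 0.0232), a call lost without lectin-only replicate 1 or any 1 of the GFP+ arrays and in a fit of those 2 gates (log2 differences of -2.66 to -2.58). Rgs10 had the same direction in both lectin-binding gates, 2.94 ± 0.42 in the GFP+ and 3.14 ± 0.42 in the lectin-only gate. The beta arrestin gene Arrb1 was lower in GFP+ than columnar cells, with a difference of -1.60 ± 0.33 (adjusted p = 0.00931). So was Pik3r5, a subunit of a phosphoinositide kinase that G proteins activate, at -1.65 ± 0.43 (adjusted p = 0.0322), a call lost without columnar replicate 1 or 3 or any 1 of the GFP+ arrays (-1.76 to -1.26).

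Of 20 genes of signals that induce chemokines, 4 were higher and 1 lower in lectin-only than columnar cells, 1 higher and 1 lower in GFP+ than columnar cells, and 0 higher and 4 lower in GFP+ than lectin-only cells. The medians were 0.42, 0.22 and -0.13, and the counts of GFP+ against columnar again lie near the shares of all genes. The cytokine Il1b had 5.74, 6.73 and 7.60 in GFP+, 10.80, 10.69 and 10.95 in lectin-only and 4.27, 4.47 and 4.21 in columnar cells, and all gates were apart. Il1a was higher in lectin-only than columnar cells by 3.63 ± 0.49 (adjusted p = 0.00136), Tnf by 1.70 ± 0.37 (adjusted p = 0.0159) and the pattern receptor Tlr2 by 1.51 ± 0.27 (adjusted p = 0.00644). Irf7, a factor of the interferon response, was lower than in the columnar gate in the GFP+ gate (-1.76 ± 0.26, adjusted p = 0.00164) and in the lectin-only gate (-1.26 ± 0.26, adjusted p = 0.0131). The lectin-only call of Tnf was lost without columnar replicate 2 or 3 or lectin-only replicate 3 (1.51 to 1.64), and that of Irf7 without columnar replicate 3 (-1.0). Over the 3 lists together, 62 genes gave 17 higher and 1 lower in lectin-only against columnar.

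Markers of leukocytes moved with the members that were high in the lectin-only gate. All 6 general leukocyte markers, 12 of 14 macrophage and dendritic markers and 7 of 11 T and natural killer markers were called higher in lectin-only than columnar cells, and 0 of these were lower. The macrophage and dendritic sums were 12.64 to 13.45 in the GFP+, 15.05 to 15.43 in the lectin-only and 13.95 to 13.98 in the columnar gate, where Lyz2 read 13.87, 13.85 and 13.78. Lyz2 was called lower in GFP+ than columnar cells, with a difference of -1.20 ± 0.22 (adjusted p = 0.00492) and was not called in the other 2 comparisons. The T and natural killer sums were 7.44 to 8.31, 9.25 to 9.84 and 7.25 to 7.37 in the same order of gates. In the GFP+ gate, replicate 3 had the highest general leukocyte sum (10.63) and replicate 1 the lowest (8.89). Members high in the lectin-only gate did not all follow that order. Ccl3 read 7.86 and 4.60 on these arrays, while Cx3cr1 read 4.08 and 4.58 and Xcl1 4.45 and 4.52. The part of leukocytes in the members' differences was not tested.

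Markers of other cell types gave fewer calls. Of 3 B cell markers limma called 0 and 0 had an unadjusted p under 0.05, with sums of 6.44 to 6.87, 5.99 to 7.79 and 6.00 to 7.05 in the GFP+, lectin-only and columnar gates. Of 5 neutrophil markers, S100a8 and S100a9 were higher in both lectin-binding gates than in the columnar gate, while Mpo and Elane lay under background on all arrays. The mast cell and eosinophil list of 7 gave 1 call in each lectin-binding gate against the columnar gate, Kit at 3.39 ± 0.26 in the GFP+ and 2.43 ± 0.26 in the lectin-only gate. Of 6 endothelial markers, Pecam1 and Tek were higher in lectin-only than columnar cells (1.31 ± 0.25 and 2.48 ± 0.45). All 6 had an unadjusted p under 0.05 in limma there, against 3965 of all 18193 genes. The endothelial sums were 6.25 to 6.48 in the GFP+, 7.37 to 8.04 in the lectin-only and 6.31 to 6.62 in the columnar gate. The GFP+ gate had 1 endothelial marker called lower against columnar and 1 against lectin-only. Of 5 fibroblast markers, 3 collagen genes were lower in the GFP+ gate than in both others. The 3 general epithelial markers had 0 calls by limma in any comparison, with 1 unadjusted p under 0.05 (GFP+ against columnar), and sums of 13.92 to 14.28, 14.13 to 14.54 and 14.44 to 14.63.

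**Figure D4:**
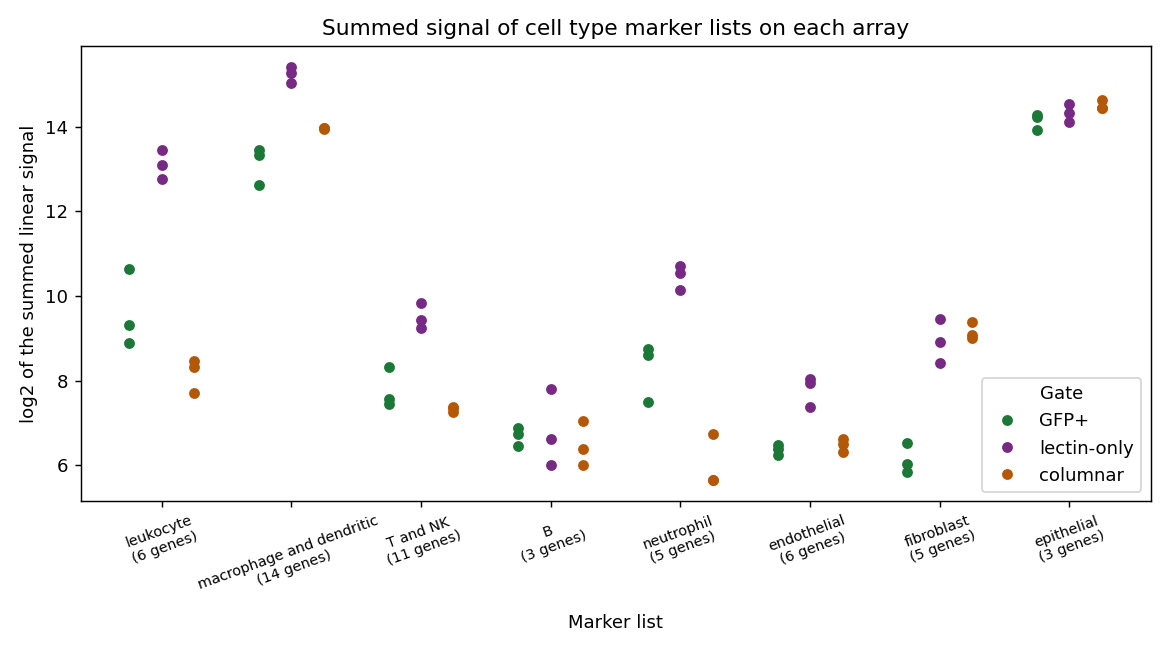
Summed linear signal of marker lists, on a log2 axis, on each array by gate. Leukocyte, macrophage and dendritic, T and NK, neutrophil and endothelial sums are highest on the lectin-only arrays, fibroblast sums are lowest on the GFP+ arrays, and epithelial sums lie close together.

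The genes whose pattern over the 9 arrays was most like a member's, after each gene was centred, were named for 1 member of each combination of calls. Nearest to Ccl3 were Il1b (root mean square difference 0.85), Cd69 (1.01), H2-Ab1 (1.02), Ifi209 (1.04) and C1qb (1.04). Nearest to Ccl28 were Efcab10 (0.34), Cfap126 (0.35), Dnah7a (0.36), Slc1a1 (0.36) and Hdc (0.37). Nearest to Cxcl10 were Fgfbp3 (0.19), Dusp10 (0.21), Pim1 (0.21), Pwwp2a (0.24) and Raph1 (0.24), and nearest to Cxcl14 were Il1a (0.30), Ankrd35 (0.34), Adgrf4 (0.41), Serpinb7 (0.43) and Tff1 (0.44).

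By position, 14 members lie on chromosome 11, and 9 of them were called higher in lectin-only than columnar cells, namely Ccl2, Ccl7, Ccl12, Ccl8, Ccl1, Ccl5, Ccl9, Ccl3 and Ccl4 in chromosomal order. On chromosome 5, 2 of 10 were (Cxcl2 and Cxcl10), beside Cxcl15, which was lower. On chromosome 9, 4 of 11 were, all receptors (Cx3cr1, Cxcr6, Ccr1 and Ccr2). For comparison, 42.0% of all 50 members and 6.47% of all genes were called higher in lectin-only than columnar cells. The order is that of the RefSeq genes of GRCm38.p6.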

How the data were processed

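Signals of 9 Affymetrix mouse arrays, 3 for each gate, were analysed as deposited. The deposited values are log2 signals made with RMA, per the submitters' processing notes, and the software version is not given in the sources used here. RMA corrects background and is meant to bring arrays to 1 distribution, but the deposited arrays did not share 1, with medians of 4.91 to 5.44. Of all probe sets, 73.0% lay above background on lectin-only replicate 3 and 65.3% to 66.3% on the others. A global shift between gates cannot be measured in such values, and signals of different probe sets are not comparable as amounts. Of 45101 probe sets, 64 are controls, 34945 have 1 gene symbol in the platform annotation, 932 have several and 9160 have none. Probe sets with several symbols were not tested. Symbols were updated through RefSeq for 34741 probe sets, and the probe set with the highest mean stood for each of 18193 genes.

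Gates were compared with limma 3.58.1 in R 4.3.3, in 1 fit of all 9 arrays, with Benjamini-Hochberg adjustment over all 18193 genes. The script was tested on simulated data. Where a gate lay under background on all its arrays, the difference is given as a bound, taken against background where the signal was dimmer than that. The 3 replicates are biological, per the series' design text, and no separate animals are named, so p-values measure the spread between these samples. The number of arrays limits the precision. Named were all members with a call, uncalled members above background on all 9 arrays or paired with a named member, and from each pathway list up to 4 called genes with the largest differences in a comparison. Lists of cell markers are given by counts and sums, with examples. The members and lists were chosen with earlier results of these data known. Alternatives were other scalings, filters, probe set rules and variance models, a replicate block and leaving out each array.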

Additional observations from a re-analysis of the deposited data

Results flagged for a closer look

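Probe sets that name several genes were left out of the tests, and some of them carried a clear signal. The probe set shared by Ccl21a, Ccl21b, Ccl21c and Ccl21d, ligands of Ccr7 that draw dendritic cells and naive T cells, averaged 8.25 in the lectin-only gate, with 8.62, 8.62 and 7.50 on its arrays. It read 4.82, 3.20 and 5.27 in the GFP+ gate and 3.70, 3.44 and 3.50 in the columnar gate. A probe set shared by Ccl27a and Ccl27b averaged 7.41 in the GFP+ gate and 6.71 in the lectin-only gate, against 6.13 in the columnar gate. Its arrays read 7.59, 8.17 and 6.48 in the GFP+ gate, 7.13, 6.50 and 6.50 in the lectin-only gate and 6.13, 6.33 and 5.92 in the columnar gate. Another probe set shared by Ccl27a and Ccl27b averaged 6.73 in the GFP+, 5.79 in the lectin-only and 5.41 in the columnar gate. Its lectin-only arrays overlapped with both other gates, and GFP+ replicate 3 and columnar replicate 2 both read 5.885. The signals of these shared probe sets cannot be assigned to 1 gene, and their differences were not tested.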

How the results depend on the processing

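Of 52 called differences of members, 37 kept their call under all 18 alternatives, 15 lost it under at least 1 and 0 changed sign. Leaving out 1 array gave 3 to 7 members higher and 3 to 5 lower for GFP+ against columnar (4 and 6 with all arrays), 17 to 23 and 1 to 3 for lectin-only against columnar (21 and 2), and 0 and 14 to 22 for GFP+ against lectin-only (0 and 19). For the pathway genes it gave 4 to 6 higher and 3 to 5 lower for GFP+ against columnar (4 and 5), 14 to 19 and 0 to 2 for lectin-only against columnar (17 and 1), and 0 to 1 and 13 to 20 for GFP+ against lectin-only (1 and 19). The count of members lower in lectin-only than columnar cells was 1 when columnar replicate 1 or 3, replicate 1 or 2 of lectin-only, or replicate 2 of GFP+ was left out, and in a fit of those 2 gates alone. Pathway genes higher in GFP+ against columnar were 8 with no minimum difference. Pathway genes lower in lectin-only against columnar were 2 after median centring of arrays, and also 2 after a further quantile normalization. They were 2 without columnar replicate 1 and 0 without columnar replicate 3. Pathway genes lower in GFP+ against columnar were 3 without GFP+ replicate 2. The 1 pathway gene higher in GFP+ against lectin-only, Ackr3, was not called in a fit of those gates alone (0 genes), nor when any array except columnar replicate 3 and lectin-only replicate 3 was left out. Of 47 called differences of pathway genes, 31 kept their call under all alternatives and 16 lost it under at least 1. The cause of these moves was not tested. Centring moved the median difference of all genes from -0.04 to -0.15 for GFP+ against columnar, from 0.07 to -0.16 for lectin-only against columnar and from -0.10 to 0.03 for GFP+ against lectin-only. Same-numbered arrays had correlations of -0.11 to 0.43 in their deviations from the gate means, with 5 of 9 over 0.1, and differently numbered arrays of -0.54 to 0.26, with 4 of 18 over 0.1. Between the GFP+ and lectin-only gates, same-numbered arrays 1, 2 and 3 had -0.04, 0.43 and 0.40. Not every same-numbered pair was over 0.1, and the main fit did not pair the samples by number. With 3 arrays per gate these correlations cannot exclude pairing, and the sources used here do not say whether a number marks 1 sort. With the replicate block the counts were 6 higher and 6 lower for GFP+ against columnar, 23 and 3 for lectin-only against columnar and 0 and 24 for GFP+ against lectin-only, and 0 calls of members were lost. With the 99th percentile as background, 14 members in place of 17 lay above it on all 9 arrays, and signal near background limits the dim members to bounds.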
